A study of Rattus with 4 samples.

Results

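The SR protein genes encode serine- and arginine-rich splicing factors, and the results below describe where RBM25 peaks lay on 10 of them, Srsf1 to Srsf7, Srsf9, Srsf10 and Srsf11, in H9C2 cells, which are cardiac myoblasts of an established embryonic rat line. RBM25 is a splicing factor associated with the U1 snRNP, the particle that recognises 5′ splice sites. The series has 4 samples of ultraviolet-crosslinked H9C2 cells, 2 RBM25 immunoprecipitates (IP) and 2 inputs, and the peak list of each IP was used. The labels give both IP samples the cell line and no genotype or agent, and the series' design text mentions RBM25 overexpression for RNA-seq without saying whether the immunoprecipitated cells carried it. A peak was a member when the gene name deposited with it was one of the 10 symbols, which gave 15 of the 2696 peaks of replicate 1 and 30 of the 8108 peaks of replicate 2. Srsf9 and Srsf10 had no peak in either list. A peak here is called sense when it lies on the strand of its gene and antisense when it lies on the opposite strand, and its height is its deposited number of tags per 50-nt bin.

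SR proteins carry 1 or more RNA recognition motifs and a tail of arginine-serine repeats. They bind exonic enhancers, recruit the U1 snRNP and U2AF to nearby splice sites, and are controlled by phosphorylation through the SRPK and CLK kinases. Many SR protein genes also regulate their own mRNA by splicing in an exon with an early stop codon, a poison exon, that sends the transcript to nonsense-mediated decay. The roles given below for single proteins come mostly from work on human and other mammalian proteins.

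RBM25 peaks were found on 8 of the 10 SR protein genes, 6 in replicate 1 and 8 in replicate 2. The 6 genes with a replicate 1 peak, Srsf1, Srsf4, Srsf5, Srsf6, Srsf7 and Srsf11, all had a peak in replicate 2 as well, and each held at least 1 position called on the same strand in both lists. Srsf2 and Srsf3 had 1 peak each, in replicate 2 alone. Among protein-coding genes of a rat name table, 7.61% had a peak in either list, 3.68% had one in replicate 1, 7.25% in replicate 2 and 2.62% a shared one, and 1.84% had a shared sense peak, as all 6 of these SR protein genes did. That table includes genes that these cells may not transcribe, so these shares are low for a background of expressed genes. Among genes with a replicate 1 peak, 70.7% held a shared peak, and all 6 SR protein genes did. When each list was limited to peaks at or below its median deposited p-value, 2 SR protein genes, Srsf5 and Srsf11, held a shared peak. Srsf7, whose shared peak had 47 and 50 tags, did not, so this limit did not follow height alone. The matching share over all genes is not given here, so the fall cannot be set against a background. The gene set was chosen with earlier results of these data known, and no p-value is given for any count. Tag numbers reflect RNA abundance as well as binding, and these cannot be told apart without the inputs, which were not used here.

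**Figure D1:**
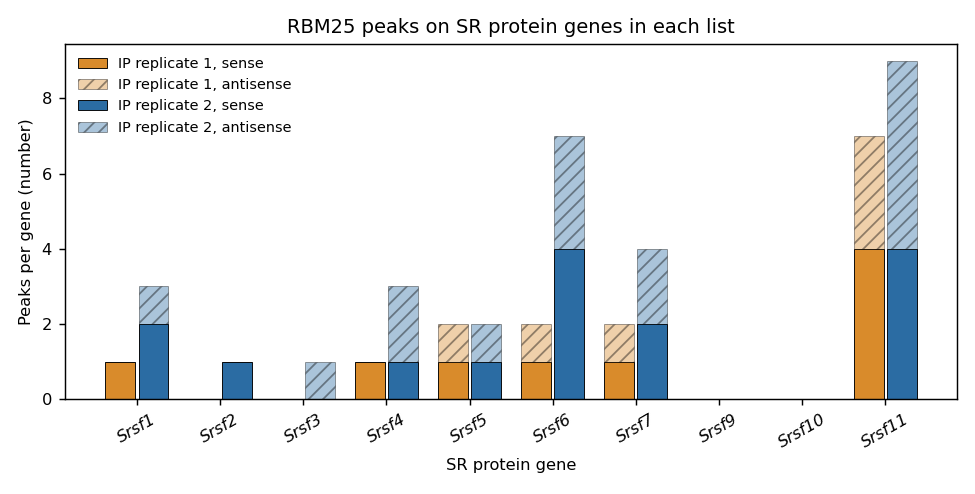
Number of peaks (y axis) on each of the 10 SR protein genes (x axis) in the lists of IP replicate 1 (orange) and IP replicate 2 (blue); solid parts are sense peaks and hatched parts antisense peaks. Srsf11 has 7 and 9 peaks, Srsf6 has 2 and 7, and Srsf9 and Srsf10 have none.

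The SR-like gene Srsf11 carried the most peaks of the family, 7 in replicate 1 and 9 in replicate 2. It encodes a protein with a single RNA recognition motif that differs from the classical SR proteins and has been reported to contact U2AF. Counted over all genes with a peak, 60 genes had more peaks than Srsf11 in replicate 1 and 175 in replicate 2. Its 4 sense peaks stood at the same positions in both lists, on the minus strand of chromosome 2 (build mRatBN7.2), and all 4 bins held coding sequence as well as intron. In the direction of transcription the first lay at 247082400 to 247082450, with 26 tags in replicate 1 and 45 in replicate 2, and was 42.0% coding sequence and 58.0% intron. The second, 5000 nt downstream at 247077400 to 247077450, had 34 and 44 tags and was 96.0% coding sequence. The third, at 247076450 to 247076500, had 39 and 43 tags and was 56.0% coding sequence and 44.0% intron. The last, at 247076000 to 247076050, had 20 and 52 tags and was 64.0% coding sequence. Replicate 2 was the higher at all 4 positions, and the last, which had the fewest sense tags of the gene in replicate 1, had the most in replicate 2. Tags were not scaled for depth between the lists, so these pairs are descriptions.

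Antisense Srsf11 peaks followed some of the same bins. The antisense peak at 247076450 to 247076500 was the highest of the gene in each list, with 42 and 55 tags in replicates 1 and 2. At 247077400 the antisense peak had 34 tags in replicate 1 and 37.5 in a 2-bin peak of replicate 2. These 2 bins were the only Srsf11 bins called on both strands in both lists. At the first and last sense positions an antisense peak was called in replicate 2 alone, with 24 and 40 tags. An antisense replicate 1 peak of 22 tags at 247076100 to 247076150 lay in the bin next to the 40-tag peak and did not overlap it. A further antisense peak, at 247079350 to 247079450 in replicate 2 with 36.5 tags, had no sense peak in its bins in either list. All Srsf11 peaks of both lists fell within 6450 nt.

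The SR-like gene Srsf10, whose product acts as a general splicing repressor when dephosphorylated, had no peak in either list. It thus shared with Srsf9 the lowest count of the family, while Srsf11 had the highest.

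**Figure D2:**
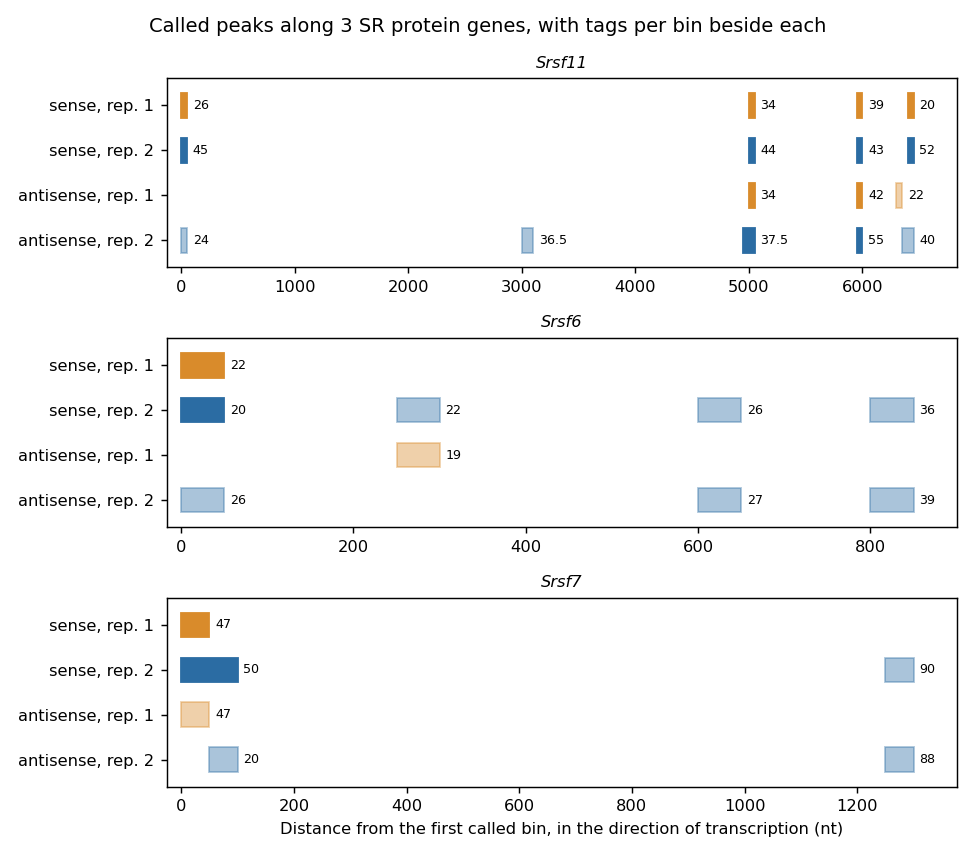
Called peaks along Srsf11, Srsf6 and Srsf7, with distance in nt from the first called bin in the direction of transcription on the x axis and a row for each strand and list (orange, IP replicate 1; blue, IP replicate 2). The number beside a peak is its tags per 50-nt bin, full colour marks peaks that overlap a peak of the other list on the same strand, and pale colour marks the others; the 4 sense positions of Srsf11 are filled in both lists, while Srsf6 and Srsf7 have sense positions in replicate 2 alone.

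Of the 5 members whose proteins have a pair of RNA recognition motifs, Srsf1, Srsf4, Srsf5 and Srsf6 each held a shared sense peak and Srsf9 had none. Together they had 6 peaks in replicate 1 and 15 in replicate 2, of which 5 were shared. Srsf5, a gene first described as an early response gene of regenerating rat liver, had a single called bin, at chromosome 6, 100606450 to 100606500. The bin was 38% 5′ UTR, 16% coding sequence and 46% intron, so that exon and intron sequence met within 50 nt. It was called on both strands in both lists, with 28 sense and 29 antisense tags in replicate 1 and 46 sense and 46 antisense tags in replicate 2. Srsf5 was thus the member whose peaks were the same in both lists by position and strand.

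Srsf6, which encodes an SR protein whose own gene holds a poison exon, was the member whose peak number differed most between the lists, with 2 peaks in replicate 1 and 7 in replicate 2. Its 4 called bins spanned 850 nt on chromosome 3, and each was part coding sequence and part intron. The bin at 151591350 to 151591400, 20.0% coding sequence and 80.0% intron, was the shared one, with 22 sense tags in replicate 1 and 20 in replicate 2. Replicate 2 also had an antisense peak of 26 tags there. The next bin, at 151591600 to 151591650, was called on opposite strands in the lists, antisense with 19 tags in replicate 1 and sense with 22 tags in replicate 2. The remaining bins were called in replicate 2 alone on both strands, with 26 sense and 27 antisense tags at 151591950 to 151592000 and 36 sense and 39 antisense tags at 151592150 to 151592200. The Srsf6 peaks of replicate 1 lay within 3 tags of the lowest tags in that list, which were 19. The shared peak in replicate 2 had the lowest tags of that list, 20.

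Srsf1, the gene of an SR protein needed for splicing of many constitutive introns, had its shared peak at chromosome 10, 72839300 to 72839350, wholly in the 5′ UTR, with 24 tags in replicate 1 and 20 in replicate 2. As for Srsf6, those 20 tags were the lowest of the replicate 2 list. No antisense peak was called there. A second position, 1250 nt downstream at 72840550 to 72840600, was 88.0% coding sequence and 12.0% intron and was called in replicate 2 alone, with 32 sense and 37 antisense tags. Srsf4, which encodes an SR protein with a long arginine-serine tail, had its shared sense peak wholly in coding sequence on chromosome 5, as 1 bin with 24 tags at 144088000 to 144088050 in replicate 1 and as 2 bins averaging 22.5 tags in replicate 2. Antisense Srsf4 peaks were called in replicate 2 alone, with 35 tags at 144088050 to 144088100 and 21 tags at 144088150 to 144088200.

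The 3 classical members with a single RNA recognition motif, Srsf2, Srsf3 and Srsf7, had 2 peaks in replicate 1, both on Srsf7, and 6 in replicate 2. Srsf7, whose protein also has a zinc knuckle and links splicing to mRNA export, held the tallest peaks of the family. On chromosome 6 at 14811800 to 14811850, wholly 5′ UTR, replicate 1 had 47 sense and 47 antisense tags, the highest of any member peak in that list. In replicate 2 the sense peak there covered 2 bins with a mean of 50 tags, and the antisense peak had 20 tags and lay in the adjoining bin, so only the sense peak was shared. A position 1250 nt downstream, at 14813050 to 14813100, was 74.0% coding sequence and 26.0% intron. It had 90 sense and 88 antisense tags in replicate 2 and no peak in replicate 1. The sense peak there stood above 98.7% of replicate 2 peaks by tags, and replicate 1 called no peak of 19 tags or more in that bin. Srsf2, the gene of a nuclear speckle marker, had a coding sense peak of 29 tags at chromosome 10, 102054300 to 102054350. Srsf3, the gene of the smallest SR protein, had an antisense peak of 26 tags at chromosome 20, 7099150 to 7099200 and no sense peak.

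**Figure D3:**
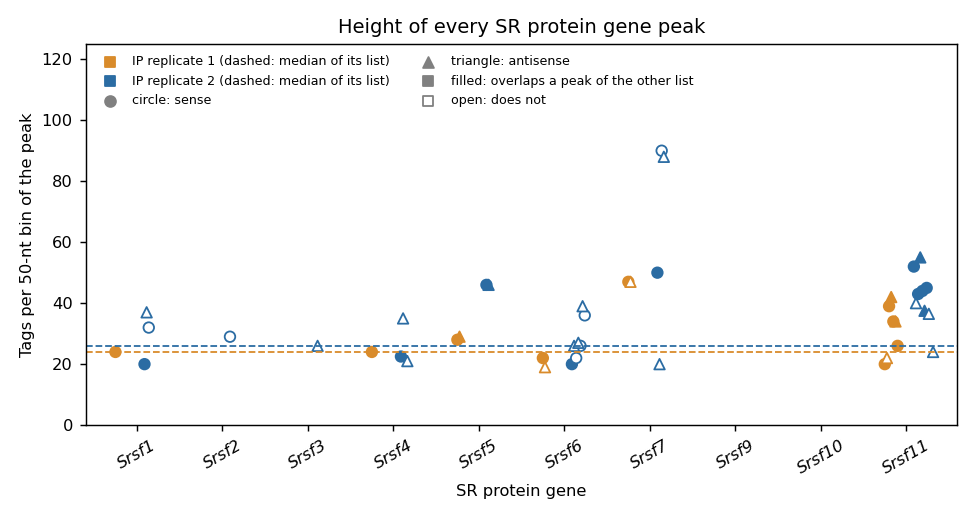
Tags per 50-nt bin (y axis) of each of the 15 replicate 1 peaks (orange) and 30 replicate 2 peaks (blue) by SR protein gene (x axis), with circles for sense and triangles for antisense peaks; filled symbols overlap a peak of the other list on the same strand. Dashed lines are the list medians, 24 and 26 tags in replicates 1 and 2, and the tallest pair is on Srsf7 at 90 and 88 tags.

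In height, the SR protein peaks ranged from 19 to 47 tags in replicate 1 with a median of 28, against 19 to 453 with a median of 24 over all peaks. In replicate 2 they ranged from 20 to 90 with a median of 36.2, against 20 to 651 with a median of 26 over all peaks. In replicate 1, 9 of 15 member peaks lay above the list's median (60.0%, Wilson interval 35.7 to 80.2), where 46.3% of all peaks did. In replicate 2, 20 of 30 did (66.7%, 48.8 to 80.8), where 49.2% of all peaks did. Each interval held the share of its list. Without Srsf11, a setting chosen after seeing the data, 4 of 8 replicate 1 member peaks lay above the median (50%, 21.5 to 78.5). In that setting 12 of 21 replicate 2 member peaks did (57.1%, 36.5 to 75.5). Srsf11, Srsf7 and Srsf5 had their median peak above the 70th percentile of their list in both replicates. The median Srsf1, Srsf4 and Srsf6 peaks in replicate 1 lay at percentiles 50.6, 50.6 and 19.4 of the list.

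All sense peaks of replicate 1 had a counterpart in replicate 2, and some of its antisense peaks did. Of the 15 member peaks of replicate 1, 12 were shared, that is, met a same-strand peak of replicate 2 (80.0%, 95% Wilson interval 54.8 to 93.0), where 61.0% of all replicate 1 peaks did, a share inside that interval. All 9 sense peaks recurred (interval 70.1 to 100%), where 64.6% of all sense peaks did, and 3 of 6 antisense peaks recurred (50%, 18.8 to 81.2), where 60.0% of all antisense peaks did. Of the 9 sense peaks, 4 were on Srsf11, so they are not independent, and intervals here cover counting error only. A sense and an antisense peak that share a bin also count as separate peaks where both strands are counted. There were 4 such pairs in replicate 1 and 12 in replicate 2, and the intervals do not allow for this. Without Srsf11, 5 of 5 replicate 1 sense peaks recurred (interval 56.6 to 100%), an interval that holds the 64.6% of all sense peaks. The 3 antisense peaks that did not recur were on Srsf6, Srsf7 and Srsf11. Seen from the longer list, 12 of 30 replicate 2 member peaks were shared (40.0%, 24.6 to 57.7), where 20.3% of all replicate 2 peaks were. For sense peaks these shares were 9 of 15 (60.0%, 35.7 to 80.2) and 19.9%, and for antisense peaks 3 of 15 (20.0%, 7.05 to 45.2) and 20.9%. The intervals for all member peaks and for sense peaks lay above the shares of the list, and the antisense interval held its share. Without Srsf11, a setting chosen after seeing the data, 6 of 21 replicate 2 member peaks were shared (28.6%, 13.8 to 50%), an interval that holds the 20.3% of all peaks. In that setting 5 of 11 sense peaks (45.5%, 21.3 to 72.0) and 1 of 10 antisense peaks (10%, 1.79 to 40.4) were shared. The lower end of this sense interval lay just above the 19.9% of all sense peaks, and the antisense interval held the 20.9% of all antisense peaks. The 12 shared pairs had 9 identical positions, and the tags were higher in replicate 2 in 9 pairs, while the 3 pairs of Srsf1, Srsf4 and Srsf6 were lower there, with differences of 1.5 to 4 tags. Of the 18 replicate 2 peaks that replicate 1 lacked, 11 were above the median of their list and 3 lay within 2 tags of its lowest value. Of all 30 member peaks there, 20 were above that median. The same shares over all unshared replicate 2 peaks are not given here, so these counts describe the 18 peaks alone.

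Antisense peaks were common on SR protein genes, as in the lists as a whole. They made up 6 of 15 member peaks in replicate 1 (40.0%, 19.8 to 64.3), where 51.6% of all peaks were antisense, and 15 of 30 in replicate 2 (50%, 33.2 to 66.8), where 49.3% were. All peaks include intergenic ones, and among peaks assigned to a gene 53.7% were antisense in replicate 1 and 50.7% in replicate 2. In replicate 1, 4 of 9 sense peaks had an antisense peak in a bin they shared, where 50.5% of all sense peaks did. In replicate 2, 12 of 15 had one, where 73.5% did. Within these 16 pairs the strands had close to equal tags in most cases. The antisense strand held 50 to 51.9% of the tags in the 4 pairs of replicate 1. It held 28.6 to 60.9% in the 12 pairs of replicate 2, with a median of 50.5%. Both ends of that range, on Srsf7 and Srsf4, set a sense mean over 2 bins against a single antisense bin. Where each strand was called as 1 bin, the antisense share in replicate 2 ran from 34.8% on Srsf11 to 56.5% on Srsf6. A pair enters only where both strands were called, so a bin with 1 strand below the lowest called tags is missing from these shares. The pairs furthest from equal were on Srsf7 at its 5′ UTR position and on Srsf11 at its first position, both in replicate 2. Srsf7 had a mean of 50 sense tags over 2 bins and 20 antisense tags in a single bin. Srsf11 had 45 sense and 24 antisense tags.

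**Figure D4:**
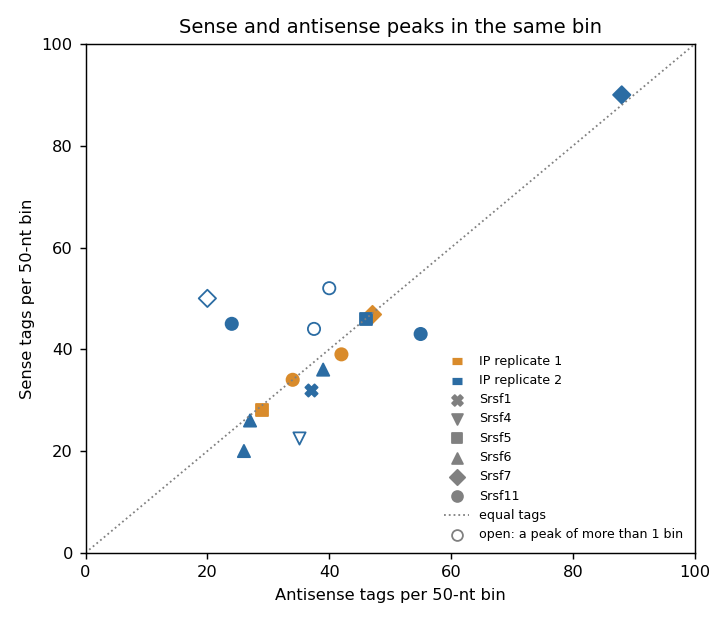
Sense tags (y axis) against antisense tags (x axis) per 50-nt bin for the 16 cases in which a sense and an antisense peak of the same SR protein gene shared a bin in the same list (orange, IP replicate 1; blue, IP replicate 2; symbols give the gene). The 4 replicate 1 pairs lie on or next to the dotted line of equal tags, the Srsf7 pair of replicate 2 lies at 90 sense and 88 antisense tags, and open symbols mark pairs with a peak of more than 1 bin.

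By deposited annotation, most sense peaks on SR protein genes held both exon and intron sequence, as most sense peaks of the lists did, and those of Srsf2 and Srsf4 lay wholly in coding sequence. Exon and intron sequence were both present in 6 of 9 sense peaks of replicate 1 (66.7%, 35.4 to 87.9), where 67.8% of all sense peaks held both, and in 11 of 15 of replicate 2 (73.3%, 48.0 to 89.1), where 71.2% did. The boundary share of these genes was thus close to that of the lists as a whole. Without Srsf11, a setting chosen after seeing the data, the shares were 2 of 5 (40.0%) in replicate 1 and 7 of 11 (63.6%) in replicate 2. A part in the 5′ UTR was found in 3 sense peaks of replicate 1, on Srsf1, Srsf5 and Srsf7 (33.3%, 12.1 to 64.6), where 11.0% of all sense peaks had one. The same 3 positions were the only such peaks among the 15 sense peaks of replicate 2 (20.0%, 7.05 to 45.2), where 7.25% of all sense peaks had one. All 3 were thus called in both lists, that of Srsf1 with the lowest tags of the list in replicate 2. No sense peak lay wholly in an intron or touched a 3′ UTR, which for 15 peaks in replicate 2 allows a share of up to 20.0% for each. Over all sense peaks of replicate 2, 5.07% lay wholly in introns and 2.03% touched a 3′ UTR, so a lower share on SR protein genes was not detectable with so few peaks. Whether any of the bins with intron sequence lies beside a poison exon was not examined, since exon models were not used here.

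**Figure D5:**
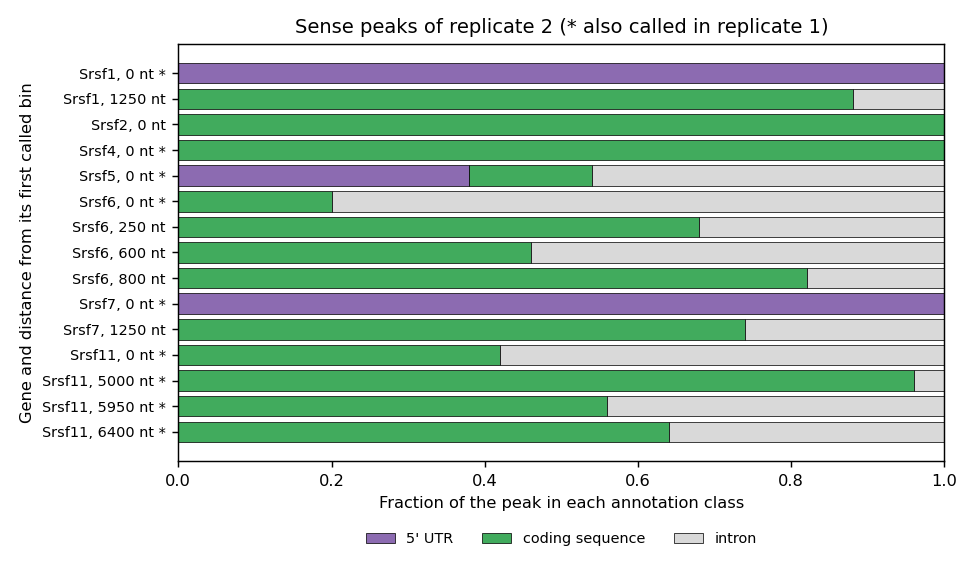
Composition of the 15 sense peaks of SR protein genes in replicate 2, given as the fraction of each peak (x axis) in 5′ UTR (purple), coding sequence (green) and intron (grey); rows give the gene and the distance in nt from its first called bin, and an asterisk marks the 9 peaks also called in replicate 1. Of the 15 peaks, 11 hold exon and intron sequence, and the 3 with 5′ UTR sequence are all marked.

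Across both lists and strands the 8 genes had 24 called 50-nt bins. The 3 bins called on both strands in both lists were the Srsf5 bin and the bins of Srsf11 at 247076450 and 247077400. A single strand of a single list called 8 of the bins, 5 of them on Srsf11. No peak assigned to another gene or to intergenic sequence was called within 20000 nt of the called bins of any member. How reads that map to more than 1 place were treated is not given in the sources used here, and SR protein genes are related in sequence.

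Genes that work with SR proteins were described from a list of 22 regulators and partners. That list, and not the 10 members, holds the SR-like gene Srsf12, which had no peak in either list. Peaks were found in 8 of the 10 SR protein genes (80.0%, 49.0 to 94.3) and in 12 of these 22 (54.5%, 34.7 to 73.1). Shared peaks were found in 6 of the SR protein genes (60.0%, 31.3 to 83.2) and in 5 of the 22 (22.7%, 10.1 to 43.4). The intervals overlap in each case, and the differences were not tested. Among protein-coding genes of the name table, transcribed here or not, 7.61% had a peak in either list and 2.62% a shared one. The kinase gene Srpk2, whose product phosphorylates the arginine-serine tail, had 4 shared peaks, a sense and an antisense peak at each of 2 positions on chromosome 4. At 11635800 to 11635850 it had 37 sense tags in replicate 1 and 44 in replicate 2, and 48 and 57 antisense tags. At 11634750 to 11634800 it had 31 sense tags in replicate 1 and a mean of 26.5 over 2 bins in replicate 2. Snrnp70, which encodes the U1 snRNP protein that SR proteins contact, had a single peak in replicate 1 and 16 in replicate 2, and its shared sense peak had 20 and 55 tags. U2af2, the gene of the larger U2AF subunit, had a shared sense peak of 22 and 34 tags, 50% coding sequence and 50% intron. Upf1, a helicase of nonsense-mediated decay, had a shared sense peak of 21 and 21 tags, and the mRNA export receptor gene Nxf1 had a shared antisense peak of 28 and 33 tags. Tra2b, an SR-like splicing activator gene named here after its values were seen, had 2 peaks in replicate 1 and 7 in replicate 2 with none shared. Its tallest replicate 1 peak, sense with 62 tags at 78788900 to 78788950 on chromosome 11, adjoined a replicate 2 sense peak at 78788950 to 78789050 with 24 tags. Neighbouring bins were not counted as overlapping. Its tallest replicate 2 peak, antisense with 52 tags, lay at another position, 78795350 to 78795400.

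Set beside other families of splicing factors, SR protein genes held a shared peak in 6 of 10 cases (60.0%, 31.3 to 83.2), SR-related nuclear speckle genes in 13 of 24 (54.2%, 35.1 to 72.1) and hnRNP genes in 9 of 27 (33.3%, 18.6 to 52.2). Of the replicate 1 peaks, 80.0% recurred in SR protein genes, 77.6% in speckle genes (66 of 85 peaks) and 54.8% in hnRNP genes (17 of 31 peaks). The intervals overlap for each pair of families, and the differences were not tested. By number of sense and antisense peaks in the lists, 10 genes outside the family were equally near to Srsf11, with a summed difference of 2 peaks over the 4 counts. The first 3 of them by symbol were Afap1, Akap8 and Akap8l. Akap8, which encodes a nuclear A-kinase anchoring protein, had 4 sense and 4 antisense peaks in each list, and all 8 of its replicate 1 peaks were shared. Its relative Akap8l had 4 sense and 3 antisense peaks in replicate 1 and 5 and 4 in replicate 2. Of its replicate 1 peaks, 7 were shared. Afap1, the gene of an actin filament-associated protein, had 3 of each in replicate 1 and 4 of each in replicate 2. Of its replicate 1 peaks, 5 were shared, beside 6 for Srsf11.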

How the data were processed

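Of the 4 samples, the 2 RBM25 IP samples were analysed, each through 1 deposited peak list that its name ties to it; the labels do not say whether separate cultures were used. Per the submitters' processing notes, HISAT2 and mRatBN7.2 were used. How peaks were called, filtered or set against inputs is not given in the sources used here. In these lists, the deposited tags are a signal per 50-nt bin, a mean over bins in longer peaks and not scaled for depth, per the file headers and values. The deposited p-value of each peak was used only to select the peaks at or below the median p-value of a list. Library depth is unknown.

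A shared peak overlapped a same-strand peak of the other list. Starts lie on a 50-nt grid, so neighbouring bins were not counted as overlapping. A percentile is the share of peaks of the same list with fewer tags, ties counted in part. Named genes were all members, pathway genes with a shared peak and the 3 genes nearest to the member with the most peaks, and Tra2b, which was chosen after its values were seen. Of 1914 gene names, 1829, among them all members with a peak, matched a RefSeq name table (GRCr8, names alone). Members and lists were chosen with earlier results of these data known. No test was run, since no groups of samples are compared. Alternatives varied overlap, strand, threshold, peak length and replicate, and leaving out Srsf11 was added after seeing the data. Overlap counting was tested on simulated data: 600 of 600 planted overlaps were found among 2000 peaks. The planted overlaps were identical single bins, so this checks the code for that case and not for partial overlaps of longer peaks. Computation used Python 3.11.15 with pandas 2.3.3 and scipy 1.17.1, and figures matplotlib 3.10.9.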

Additional observations from a re-analysis of the deposited data

How the results depend on the processing

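Of 26 alternative values, 23 lay within the 95% interval of the reported share or within 1.5 times the reported count; with so few peaks these intervals are wide. With only the peaks at or below the median p-value of their list, 2 SR protein genes in place of 6 held a shared peak, Srsf5 and Srsf11, while 8 still had a peak in either list. Recurrence of replicate 1 peaks was 93.3% with strand ignored and 100% with sense peaks alone, in place of 80.0%. It was 60.0% where positions had to be identical or peaks of 1 bin alone were used, settings in which 4 genes held a shared peak, and 63.6% at or below the median p-value. Shares over all genes and all peaks are not given here for the p-value setting. Without Srsf11, recurrence was 75.0% in replicate 1 and 28.6% in place of 40.0% in replicate 2, and the share of sense peaks with exon and intron in replicate 1 was 40.0% in place of 66.7%. Leaving out 1 replicate gave 6 to 8 genes with a peak. No paired analysis was possible because the inputs, which share replicate numbers with the IPs, were not analysed here and no result comes from a test between groups. Tags start at 19 in replicate 1 and 20 in replicate 2, so a position missing from a list can lie just under these values, and the depth of the libraries, which would set that limit, is unknown.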
